A study of Saccharomyces cerevisiae with 54 samples.

Results

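Ribosome biogenesis factors are the nucleolar proteins that fold, cleave, modify and package pre-ribosomal RNA into the small and large ribosomal subunits before these leave the nucleus. The 50 factors described here were chosen by systematic name, as nucleolar NOP, UTP, snoRNP, NOC and helicase proteins of ribosome assembly, and all 50 were found among the 6679 genes of each table. By their established roles they comprise 3 box C/D snoRNP core proteins (NOP1, NOP56, NOP58), 3 box H/ACA snoRNP core proteins (CBF5, GAR1, NHP2), 6 subunits of the UTP-A complex, 6 of the UTP-B complex, 3 of the Mpp10 complex, 6 other small subunit factors, 3 subunits of the Nop7 complex, 15 other large subunit factors and 5 DEAD-box RNA helicases. In budding yeast these genes are known as a tightly co-regulated set. They are transcribed strongly in rich medium under the control of the TOR and PKA nutrient pathways, and are repressed when cells starve. Guide snoRNAs with their core proteins place methyl groups and pseudouridines in the rRNA, the UTP and Mpp10 complexes with the U3 snoRNA build the small subunit processome on the nascent transcript, and helicases and GTPases drive the later steps.

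All cells were budding yeast of the SK1 background. The growing (vegetative) cells were in exponential phase in YEPD at an OD600 of 0.6, and cells in sporulation medium were taken at 0, 1.5, 3, 4.5, 6, 8 and 10 h and as spores. A MATa/a strain, which lacks the alpha mating type and is labelled non-meiotic, was taken at 4.5 h in the same medium. The labels give no further alleles for these cells and nothing on how synchronously they moved. The series asks how transcripts and their translation change through meiosis, and what induction of Ndt80 does to them. Each state had 1 ribosome footprint library, 1 mRNA library and, growing cells apart, 1 total RNA library used here (the course), and a parallel set added 1 footprint library each of growing cells and 0 h, 2 each of 1.5, 3 and 6 h, and mRNA libraries of 0 h (1), 1.5 h (2), 3 h (1) and 6 h (2). In the titles the parallel growing and 0 h libraries were prepared alongside the main course for replicate 1. Those of 1.5, 3 and 6 h were prepared in parallel for replicate 1 or 2. Whether all of them were prepared together is not stated. A strain named brun95 with inducible Ndt80, the transcription factor of the middle meiotic genes, gave 5 mRNA libraries with induction (5.75, 6, 6.5, 7 and 7.75 h) and 4 without (4, 5.5, 6 and 7.75 h). The labels do not say how it was induced.

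Values were deposited as RPKM, read numbers scaled by gene length and by the size of the library, and are given here as such. The number of reads recovered from them was 2270000 to 17000000 in course footprint libraries, 8700000 to 24700000 in course mRNA libraries, 1030000 to 10800000 in parallel footprint libraries, 2200000 to 17700000 in parallel mRNA libraries and 2620000 to 8020000 in induction libraries. Levels and changes are on the log2(RPKM + 1) scale after each library was centred on its median gene, so a level of 0 is that of the median gene. Where values of 3 libraries are listed they are those of the course and of parallel replicates 1 and 2, in that order, and for 3 h mRNA the course and the 1 parallel library. A change is called where the adjusted p of limma's test over all genes is under 0.05, and only called changes are said to have risen or fallen. Separate cultures are not stated for the replicates, and the p-values therefore cover the spread among these libraries, possibly technical, and no more. In bulk samples fewer cells of a kind and less RNA per cell cannot be told apart.

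Some libraries stood apart from their labels or their replicates. The mRNA library labelled MATa/a correlated over genes with that of growing cells (Pearson r = 0.966) more than with that of the 4.5 h cells (r = 0.517), while the footprint library of the same label had r = 0.731 with growing cells and r = 0.870 with 0 h. In the parallel set, the 1.5 h replicate 1 libraries held the factors at higher levels than the other 1.5 h libraries. Their median footprint level was -0.19 there, against -1.25 in replicate 2 and -1.41 in the course, and their median mRNA level was -0.57, against -1.08 and -1.15. Counts that rest on these libraries are given with and without them, as are the values of several named factors. Footprints of ADH2, an alcohol dehydrogenase repressed by glucose, were at 159.7 and 126 RPKM in growing cells, against 53071 and 57192 RPKM at 0 h, and those of IME2, an early meiotic kinase, were at 1538, 1431 and 1916 RPKM at 1.5 h, against 43.7 and 90.4 RPKM at 0 h. In MATa/a cells ADH2 was at 109300.0 RPKM in footprints and at 286 RPKM in mRNA, so the mRNA library went against its label. Growing cells also had the a-cell pheromone receptor STE2 at 179.9 and 236 RPKM in footprints, against 6.23 and 9.16 RPKM at 0 h, and at 568 RPKM in mRNA, against 88.3 and 32.2 RPKM at 0 h. Footprints of STE3, the receptor of alpha cells, were at 0.65 and 0.232 RPKM in growing cells, against 1.90 and 4.18 RPKM at 0 h. The labels give no mating type for growing cells, so growth, medium and any difference in mating type cannot be told apart in the comparison of growth with 0 h. The header of the vegetative mRNA library names replicate 1 and those of the other course states name none. Copies of the course columns of growing footprints, 0 h footprints and 0 h mRNA stand in the parallel table under headers of replicate 2.

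In growing cells the factors spanned a wide range of ribosome occupancy. NOP1 (YDL014W), the fibrillarin methyltransferase of box C/D particles, had the highest course footprint level with 4906 RPKM, followed by GAR1 and NSR1 (YGR159C), the yeast nucleolin, with 3009.5 and 2719.7 RPKM. UTP20 (YBL004W), a very large scaffold protein, was lowest with 57.2 RPKM, and UTP10 (YJL109C), the large subunit of UTP-A, followed with 108 RPKM. RPKM is per length, so these are densities along the message. The 6 snoRNP core proteins and NSR1 held the first 7 places, between 4906 and 1336 RPKM, and no UTP protein reached the 238 RPKM of IMP4. Together the 50 factors took 0.699% and 0.715% of all footprint RPKM in growing cells, 0.26% and 0.264% at 0 h, 0.0873% at 4.5 h, 0.19% at 10 h and 0.167% in spores. The plot of levels by state shows this course for each factor.

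**Figure D1:**
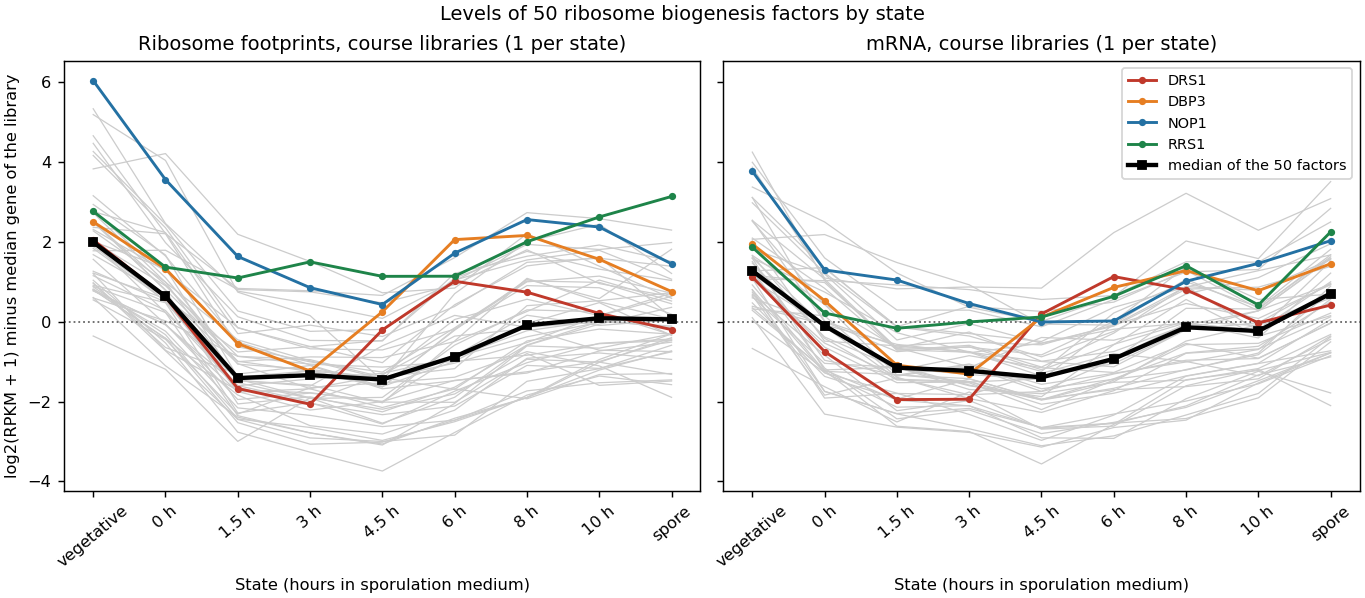
Each grey line is 1 of the 50 factors, the black line their median and the coloured lines 4 named factors, as log2(RPKM + 1) minus the library's median gene, for footprints (left) and mRNA (right) of the course with 1 library per state. The median footprint level was 1.99 in growing cells, 0.64 at 0 h, -1.45 at 4.5 h and 0.09 at 10 h; DRS1 and DBP3 are higher at 4.5 h than at 3 h, while the median is slightly lower at 4.5 h.

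Assembly classes differed in level. The 3 box C/D proteins had median footprint levels of 4.27 in growing cells, 2.44 at 0 h, -0.19 at 4.5 h, 1.79 at 10 h and 1.07 in spores. UTP-A had 1.06, -0.43, -2.17, -1.14 and -1.03 in the same states, and the Mpp10 complex 1.68, 0.58, -1.34, 0.50 and 0.72. These are centred log2 levels per length, each from 1 library, and of these 5 states growing cells had the highest and 4.5 h cells the lowest in all 3 classes.

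The comparison of growth with starvation asks how the factors stand in rich medium and at the start of the sporulation culture, when ADH2 was already high. Footprints of 38 of 50 factors rose in growing cells relative to 0 h and none fell, where 42.4% of all 5944 genes tested were called higher and 31.5% lower. The growing cells of this comparison also differed from 0 h in STE2, and the part of this was not tested. The median change of the factors was 1.31 on the log2 scale, against 0.25 over all genes, and single factors ranged from -0.38 to 3.04. The 4 largest changes were those of snoRNP core proteins. All 3 of the box H/ACA class rose, with a median of 2.57, and all 3 of the box C/D class, with a median of 1.84.

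GAR1 (YHR089C), the box H/ACA protein that aids substrate turnover, had footprints of 3009.5 and 2388 RPKM in growing cells, against 368 and 223 RPKM at 0 h. Both growing values lay far above both 0 h values, and the change was 3.04 ± 0.34 (SE, adjusted p = 3.94e-07). CBF5 (YLR175W), the pseudouridine synthase of the same particles, had 1650.1 and 1672 RPKM in growing cells, against 264 and 242 RPKM at 0 h. Its groups did not overlap either, with a change of 2.54 ± 0.35 (SE, adjusted p = 6.12e-06). NHP2 (YDL208W), a core protein that contacts the guide RNA, rose by 2.57 ± 0.29 (SE, adjusted p = 5.64e-07). NOP1 had 4906 and 3668 RPKM in growing cells, against 789 and 586 RPKM at 0 h, and rose by 2.46 ± 0.29 (SE, adjusted p = 1.06e-06). MRT4 (YKL009W), a large subunit factor related to the stalk protein P0, rose by 2.00 ± 0.34 (SE, adjusted p = 5.97e-05).

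Within the small subunit processome the class medians lay between 0.95 and 1.32. In UTP-B 4 of 6 subunits rose, with a median of 1.23. DIP2 rose by 1.74 ± 0.38 (SE, adjusted p = 0.000542), while PWP2 (YCR057C), a beta-propeller scaffold, had 135 and 133 RPKM in growing cells, against 52.5 and 86.6 RPKM at 0 h. The PWP2 values did not overlap, yet its difference of 0.81 ± 0.39 (SE, adjusted p = 0.0723) did not pass. In UTP-A, which binds the start of the transcript, 4 of 6 rose (median 1.32), and UTP10 did not, with 0.53 ± 0.39 (SE, adjusted p = 0.236). All 3 Mpp10 subunits rose, IMP4 by 1.11 ± 0.23 (SE, adjusted p = 0.000317), and 4 of 6 other small subunit factors did, NSR1 by 1.19 ± 0.47 (SE, adjusted p = 0.0302). On the large subunit side 11 of 15 factors rose, among them NMD3 (YHR170W), the export adaptor, by 1.06 ± 0.29 (SE, adjusted p = 0.00321). In the Nop7 complex, which acts on the precursor of the large rRNA, 2 of 3 rose, NOP7 by 1.57 ± 0.35 (SE, adjusted p = 0.000706).

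The 12 factors that did not pass were DBP2, RPF1, NOG2, NOC4, SSF1, UTP10, UTP20, UTP13, NUG1, ERB1, NAN1 and PWP2. DBP2 (YNL112W), a helicase that also acts in mRNA transcription and decay, had 1058 and 933 RPKM in growing cells, against 1241 and 1047 RPKM at 0 h. In RPKM its groups overlapped, on the centred scale the growing values were lower, and its difference was -0.38 ± 0.36 (SE, adjusted p = 0.363). RPF1 (YHR088W), of the Brix family, differed by -0.09 ± 0.25 (SE, adjusted p = 0.762), NOG2 (YNR053C), a GTPase, by 0.19 ± 0.31 (SE, adjusted p = 0.589), and NOC4 (YPR144C), a late small subunit factor, by 0.32 ± 0.41 (SE, adjusted p = 0.506). NOG2 also holds the gene of a snoRNA within its bounds in the reference annotation, and how its reads were counted is not stated in the labels. SSF1 (YHR066W), of the Brix family, has a near-identical copy in SSF2, so its counts are uncertain; it differed by 0.51 ± 0.49 (SE, adjusted p = 0.363). Of the 5 helicases 4 rose. HAS1 had 570.1 and 686 RPKM in growing cells, against 212 and 268 RPKM at 0 h, rising by 1.21 ± 0.38 (SE, adjusted p = 0.00936). That call was lost without the course growing or the parallel 0 h footprint library, the NSR1 call without any 1 of the 4 libraries of these states, and the calls of NMD3, HAS1 and NSR1 with quantile normalization.

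The mRNA of growing cells was measured in 1 library and is described without a test. Set against the course 0 h library, 39 factors were higher by 2-fold or more relative to the median gene and 0 lower, where 32.5% of all genes were higher, and the median difference was 1.74. Before centring the median gene was at 165 RPKM in growing cells, against 302 RPKM in the course 0 h library and 116 RPKM in the parallel one, so the 0 h libraries differ in scale. Against the parallel 0 h library, which comes from a table normalized separately, 27 factors were higher and 0 lower (all genes 30.1%), with a median of 1.05. By the headers the growing and the parallel 0 h mRNA libraries are of replicate 1, and the course 0 h library is of replicate 2. GAR1 mRNA stood at 3158 RPKM in growing cells, against 621 RPKM in the course and 289 RPKM in the parallel library at 0 h. Its level in growing cells was several times that of either 0 h library. The mRNA of DBP2, at 694 RPKM in growing cells, against 1378 and 499.9 RPKM at 0 h, lay between the 0 h libraries. RPF1 mRNA had 399.9 RPKM in growing cells, against 776 and 433 RPKM at 0 h. Relative to the median gene both had negative differences with either 0 h library, as they had in footprints, and ERB1 and NOP2 had negative differences with the parallel one only. At the other end GAR1, MRT4, IMP3 and NHP2 were among the 5 highest with both.

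The first hours in sporulation medium went with a further fall. Footprints of 48 of 50 factors fell at 1.5 h relative to 0 h and none rose, where 32.7% of all genes were called lower and 27.8% higher. The median change was -1.64, against -0.12 over all genes. Here the scale matters. In RPKM as deposited the median change over all genes was 0.71 at 1.5 h, and that of the factors was -0.81. On that scale 22 factors were called, all lower.

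NSR1 showed the largest fall, with 193, 624 and 137 RPKM at 1.5 h, against 1102 and 918 RPKM at 0 h. All 1.5 h values lay below both 0 h values, with replicate 1 the highest of them, and NSR1 fell by 2.80 ± 0.43 on the log2 scale (SE, adjusted p = 2.98e-05). HAS1 (YMR290C), a helicase that acts in both subunits, fell by 2.56 ± 0.35 on the log2 scale (SE, adjusted p = 1.02e-05). NOC4, whose difference between growth and 0 h had not passed, had 22.7, 68.4 and 27.2 RPKM at 1.5 h, against 92.3 and 134 RPKM at 0 h, and fell by 2.53 ± 0.38 on the log2 scale (SE, adjusted p = 2.49e-05). Here too replicate 1 was the highest 1.5 h value and lay below both 0 h values. ERB1 (YMR049C), a scaffold of the Nop7 complex, and UTP13 (YLR222C), of UTP-B, had not passed between growth and 0 h either. ERB1 fell by 2.41 ± 0.37 on the log2 scale (SE, adjusted p = 3.45e-05) and UTP13 fell by 2.39 ± 0.39 on the log2 scale (SE, adjusted p = 5.28e-05).

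The class representatives fell by amounts within the range of the set, and of those below the calls of NOP1, CBF5, IMP4, RPF2 and GAR1 were lost in RPKM as deposited. NOP1 had 359, 811 and 384 RPKM at 1.5 h, against 789 and 586 RPKM at 0 h, and, lower in every 1.5 h library on the centred scale only, fell by 1.35 ± 0.27 on the log2 scale (SE, adjusted p = 0.000384). CBF5 fell by 1.51 ± 0.32 on the log2 scale (SE, adjusted p = 0.000712). In the processome PWP2 fell by 1.93 ± 0.36 on the log2 scale (SE, adjusted p = 0.000195), UTP10 fell by 1.96 ± 0.36 on the log2 scale (SE, adjusted p = 0.000171) and IMP4 fell by 1.34 ± 0.21 on the log2 scale (SE, adjusted p = 3.57e-05). On the large subunit side NOP7 fell by 1.86 ± 0.32 on the log2 scale (SE, adjusted p = 0.000102) and NMD3 fell by 1.72 ± 0.27 on the log2 scale (SE, adjusted p = 3.18e-05). The class medians ran from -2.11 in the other small subunit factors to -0.97 in the box H/ACA class, whose GAR1 had led in growth and here fell by 0.92 ± 0.31 on the log2 scale (SE, adjusted p = 0.0156). The GAR1 call was lost without any 1 of the course 0 h, course 1.5 h or parallel 1.5 h replicate 2 footprint libraries and with each assay fitted alone, and the value was -0.48 without the course 0 h library and -1.42 without the parallel 0 h library. Without both parallel 1.5 h replicate 1 libraries the values were -1.68 for NOP1, -1.94 for CBF5 and -1.34 for GAR1, all called.

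The 2 factors that did not pass were RRS1 and SPB4. RRS1 (YOR294W), which brings the 5S rRNA particle to the large subunit together with RPF2, had 246, 369 and 226 RPKM at 1.5 h, against 172 and 164 RPKM at 0 h. Its 1.5 h values were above its 0 h values before centring and its centred difference was -0.12 ± 0.24 (SE, adjusted p = 0.68). SPB4 (YFL002C), a helicase of the large subunit, had 62.4, 93.3 and 67.2 RPKM at 1.5 h, against 67.0 and 33.7 RPKM at 0 h, a difference of -0.21 ± 0.24 (SE, adjusted p = 0.455). RPF2 (YKR081C), the partner of RRS1, fell by 1.32 ± 0.33 on the log2 scale (SE, adjusted p = 0.0022). The plot of changes by assembly step shows both comparisons for all factors.

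**Figure D2:**
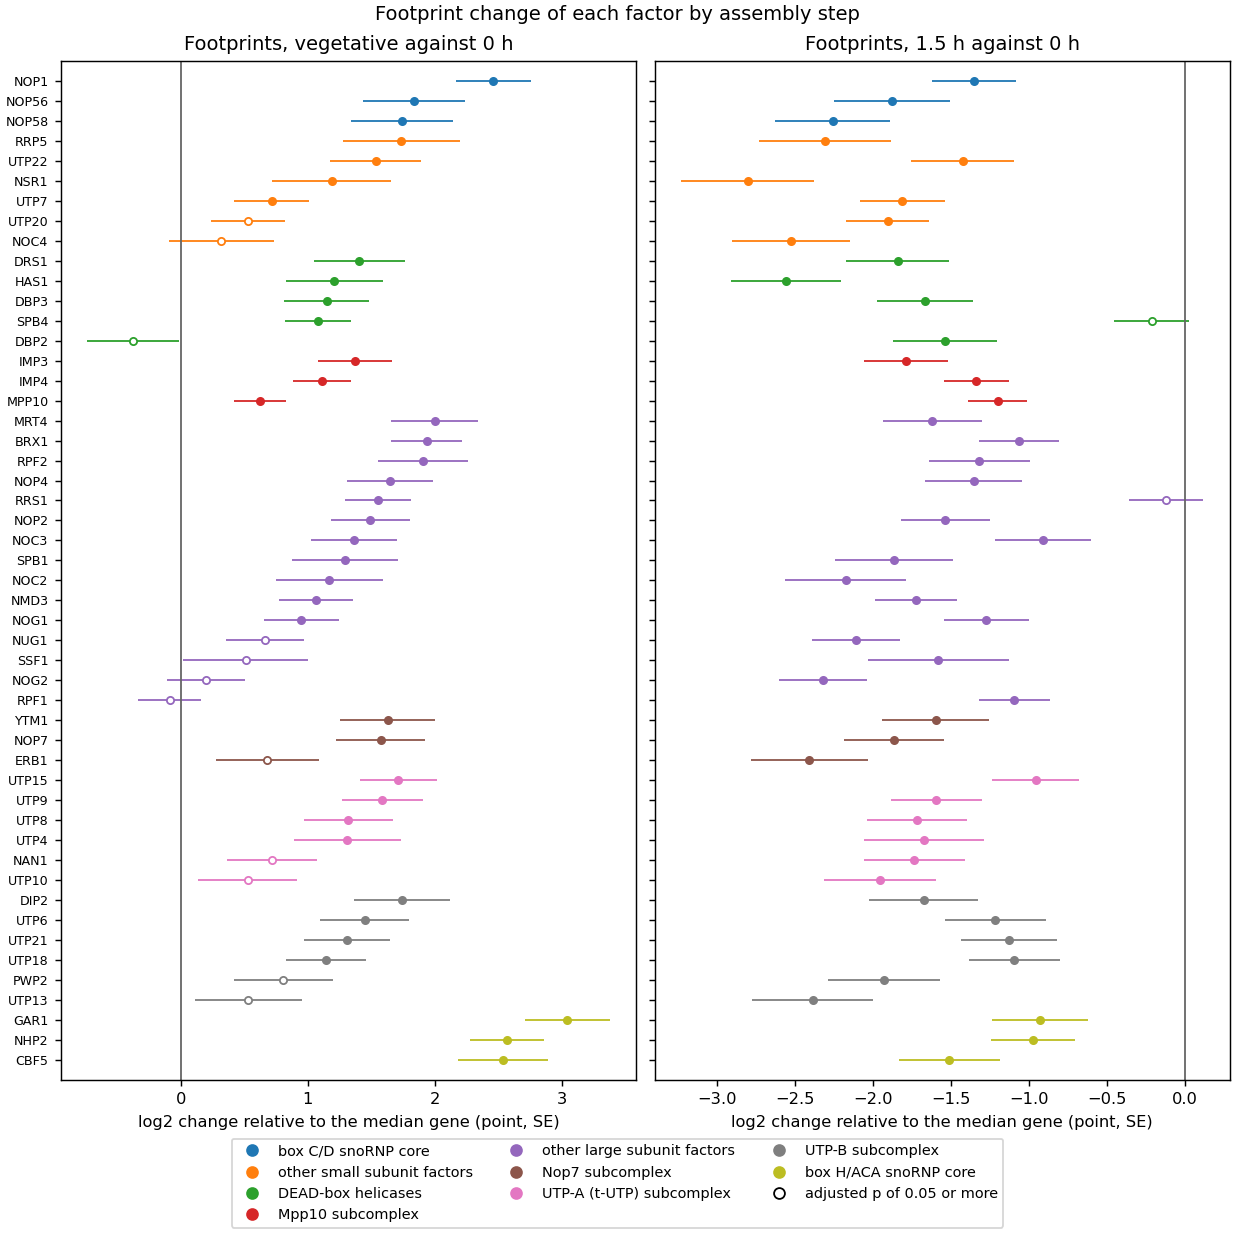
Points are the log2 footprint changes of the 50 factors relative to the median gene with their standard errors, coloured by class, for growing cells against 0 h (left) and 1.5 h against 0 h (right); open points did not pass an adjusted p of 0.05. On the left the box H/ACA proteins are farthest right, with GAR1 at 3.04, and on the right RRS1 and SPB4 are the open points near 0.

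At 3 h relative to 1.5 h the mRNA of 1 factor fell and that of none rose, where 5.2% of all genes were called lower. The factor was NOG1 (YPL093W), a GTPase of the large subunit, with 123 and 107 RPKM at 3 h, against 151, 265 and 206 RPKM at 1.5 h. Both 3 h values lay below all 1.5 h values, and NOG1 fell by 0.93 ± 0.27 on the log2 scale (SE, adjusted p = 0.0406). No factor was called without any 1 of the mRNA libraries of 1.5 and 3 h, the course 6 h mRNA library, the parallel 3 h footprint libraries, the footprint libraries of growing cells, or the course or parallel replicate 1 footprint library of 6 h, 5 were without the parallel 1.5 h replicate 1 footprint library, and without both libraries of parallel 1.5 h replicate 1 there were 3 calls, all lower. Footprints fell for 11 of 50 factors (UTP21, DBP3, UTP8, IMP4, DBP2, NOG2, CBF5, NOG1, NOP1, UTP18 and BRX1) and rose for 1, where 6.97% of all genes were called lower and 9.96% higher, with a median of -0.69. The number of factors called in either direction, 12, moved with single libraries. It was 3 without parallel 1.5 h replicate 1, 24 without replicate 2 of 1.5 h, 6 without the course 3 h library, and 4 and 1 without parallel 3 h replicates 1 and 2. Without both libraries of parallel 1.5 h replicate 1 the median was -0.27. IMP4 (YNL075W), the Brix subunit of the Mpp10 complex, fell by 0.96 ± 0.19 on the log2 scale (SE, adjusted p = 0.00257) and DBP3 (YGL078C), a helicase of large subunit rRNA processing, fell by 1.04 ± 0.27 on the log2 scale (SE, adjusted p = 0.0165). UTP21 (YLR409C), of UTP-B, fell by 1.05 ± 0.28 on the log2 scale (SE, adjusted p = 0.017). Without both parallel 1.5 h replicate 1 libraries the values were -0.65 for IMP4, -0.58 for DBP3 and -0.66 for UTP21, the last not called (adjusted p = 0.052). The calls of DBP3 and UTP21 were also lost without the parallel 1.5 h replicate 1 or 3 h replicate 2 footprint library, in the parallel libraries alone and in RPKM as deposited, and that of UTP21 with quantile normalization. NSR1, with the lowest value, had -1.11 ± 0.38 (SE, adjusted p = 0.0551). UTP20 went the other way, with 28.5, 38.1 and 33.8 RPKM of footprints at 3 h, against 13.5, 30.1 and 19.95 RPKM at 1.5 h. Its groups overlapped in RPKM by 1 library, parallel 1.5 h replicate 1, and it rose by 0.79 ± 0.24 (SE, adjusted p = 0.0307). On the centred scale its groups did not overlap. That call was lost in RPKM as deposited, with quantile normalization, with no term for the set, in the parallel libraries alone, and in 5 of 23 fits that left out 1 library, each a footprint library of 1.5 or 3 h.

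In the course, with 1 library per state and no test, the lowest point of most factors came at 4.5 h. Among the 7 hours of the course, 33 of 50 factors had their lowest centred footprint level at 4.5 h and 35 their lowest mRNA level, against 15.0% and 10.3% of all genes. Footprint levels of 3 and 4.5 h were close for some factors, with -2.91 and -3.00 for UTP8. They were apart for others, with 0.15 and -1.47 for NSR1. Total RNA, in which 28 factors were lowest at 4.5 h (all genes 11.4%), comes from separate libraries whose values scale with gene length and are compared within a gene only. At 4.5 h relative to 0 h, 48 factors were 2-fold or more lower in footprints (all genes 26.9%) and 32 in mRNA (all genes 25.9%), with median differences of -2.41 and -1.28. Before centring the median gene was 0.77 higher in footprints at 4.5 h, and its mRNA changed by -0.74. No factor had its lowest footprints at 0, 8 or 10 h, and 39 of 50 had their highest at 0 h (all genes 30.5%). DBP3, DRS1, NOP4, IMP4, UTP18, SPB1, ERB1, NOP56 and UTP9 had their lowest footprints at 3 h, and MPP10, NOP2, RRS1, UTP7, UTP10 and UTP20 theirs at 1.5 h.

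By 6 h footprints of part of the set had risen again. Footprints of 16 of 50 factors rose at 6 h relative to 3 h and none fell, where 21.6% of all genes were called higher and 36.2% lower. The median change was 0.35, against -0.22 over all genes. In RPKM as deposited the median change over all genes was -0.42 at 6 h, and 9 factors were called higher and 1 lower. On that scale 49.1% of all genes were called, 29.9% of these calls being higher. Those that rose were DBP3, DRS1, NOP4, MPP10, UTP18, IMP4, SPB1, ERB1, CBF5, NOP56, IMP3, NOG2, RPF2, NHP2, NOP1 and NOG1. mRNA rose for 8 of 50 factors (DRS1, DBP3, IMP3, RPF2, MRT4, UTP6, NHP2 and MPP10) and fell for 1, where 20.6% of all genes were called higher. Rises in mRNA were thus no more frequent than over all genes, of which 47.9% were called in either direction, 43.1% of these calls being higher. With quantile normalization 12 rose and 2 fell in mRNA, where 57.5% of all genes were called, 35.8% of these calls being higher. In RPKM as deposited 2 rose and 13 fell, where the median change over all genes was -0.75. On that scale 53.6% of all genes were called, 17.6% of these calls being higher. The mRNA count was 3 without either 3 h mRNA library, 5 without the course 6 h mRNA library, 14 without the parallel 1.5 h replicate 1 footprint library and 16 without both of that replicate.

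The largest rises were those of 2 helicases. DRS1 (YLL008W), a helicase needed early in large subunit assembly, had footprints of 205, 169 and 143 RPKM at 6 h, against 25.4, 27.3 and 26.8 RPKM at 3 h. The 6 h values were several times the 3 h values in each set, and the change was 2.84 ± 0.29 (SE, adjusted p = 5.18e-07). Its mRNA had 312, 293 and 305 RPKM at 6 h, against 53.9 and 59.4 RPKM at 3 h, a change of 2.95 ± 0.33 (SE, adjusted p = 2.08e-06). DBP3 had footprints of 424, 418 and 394 RPKM at 6 h, against 46.0, 57.0 and 44.1 RPKM at 3 h. The groups were far apart, with a change of 3.25 ± 0.27 (SE, adjusted p = 3.71e-08), and its mRNA rose by 2.12 ± 0.31 (SE, adjusted p = 3.46e-05). At 6 h against 0 h neither was called in footprints, DRS1 with 0.27 ± 0.33 (SE, adjusted p = 0.478) and DBP3 with 0.55 ± 0.31 (SE, adjusted p = 0.121). The other 3 helicases were not called at 6 h against 3 h. HAS1 had -0.35 ± 0.31 (SE, adjusted p = 0.351), SPB4 -0.22 ± 0.21 (SE, adjusted p = 0.389) and DBP2 -0.70 ± 0.30 (SE, adjusted p = 0.0535).

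In the course DRS1 and DBP3 were already up at 4.5 h, when most factors were lowest. DRS1 footprints had 25.4, 98.1, 205, 152 and 109 RPKM at 3, 4.5, 6, 8 and 10 h, and its mRNA 53.9, 207, 312, 225 and 161 RPKM at the same times. DBP3 footprints had 46.0, 135, 424, 408 and 280.1 RPKM. In RPKM both had their highest footprints of these hours at 6 h, while on the centred scale DBP3 was at 2.06 at 6 h and 2.16 at 8 h. Of the other factors NOP4 alone was 2-fold or more higher in footprints at 4.5 h than at 3 h (1.01 relative to the median gene), where 8.38% of all genes were.

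The Mpp10 complex was the class in which every subunit was called. All 3 subunits rose in footprints at 6 h relative to 3 h, with a median of 1.51. MPP10 (YJR002W), its scaffold, had 217, 160.1 and 184 RPKM at 6 h, against 70.8, 70.6 and 58.5 RPKM at 3 h, with no overlap and a change of 1.67 ± 0.17 (SE, adjusted p = 3.91e-07). IMP4, its Brix subunit, had 105, 105 and 102 RPKM at 6 h, against 33.6, 46.1 and 45.9 RPKM at 3 h, a change of 1.51 ± 0.19 (SE, adjusted p = 3.82e-06). IMP3 rose by 0.94 ± 0.24 (SE, adjusted p = 0.00299) in footprints and by 1.17 ± 0.27 (SE, adjusted p = 0.00194) in mRNA. NOP4 (YPL043W), an RNA-binding factor of the large subunit, had 113, 117 and 106 RPKM at 6 h, against 35.2, 33.0 and 36.9 RPKM at 3 h, a change of 1.85 ± 0.28 (SE, adjusted p = 2.98e-05), while its mRNA differed by 0.38 ± 0.31 (SE, adjusted p = 0.335). UTP18 (YJL069C), of UTP-B, rose by 1.61 ± 0.26 (SE, adjusted p = 6.12e-05), and CBF5 by 1.13 ± 0.29 (SE, adjusted p = 0.00313).

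Other classes had fewer calls at 6 h against 3 h. In UTP-A 0 of 6 subunits were called, UTP10 with 0.34 ± 0.32 (SE, adjusted p = 0.373), and in UTP-B 1 of 6 were, UTP18. PWP2 had 0.44 ± 0.32 (SE, adjusted p = 0.247). Of the large subunit factors 5 of 15 rose, SPB1 (YCL054W), a rRNA methyltransferase, by 1.23 ± 0.34 (SE, adjusted p = 0.00549), and NMD3 had 0.03 ± 0.24 (SE, adjusted p = 0.927). NOP7 had 0.04 ± 0.29 (SE, adjusted p = 0.924). UTP20 was the 1 factor whose mRNA fell, with 22.3, 27.8 and 21.0 RPKM at 6 h, against 61.3 and 54.9 RPKM at 3 h. All 6 h values lay below both 3 h values and its mRNA fell by 0.72 ± 0.27 on the log2 scale (SE, adjusted p = 0.0356), while its footprints differed by 0.07 ± 0.24 (SE, adjusted p = 0.825). The call on its mRNA was lost with no filter on low values, with no term for the set, with each assay fitted alone, in the parallel libraries alone, and without the course 3 h, course 6 h, parallel 3 h or parallel 6 h replicate 2 mRNA library, with values from -0.99 to -0.49. At 6 h relative to 0 h, footprints of 44 of 50 factors were called lower and none higher, where 38.0% of all genes were lower, with a median of -1.78. NSR1 fell by 3.38 ± 0.43 on the log2 scale (SE, adjusted p = 2.48e-06) and HAS1 fell by 3.35 ± 0.35 on the log2 scale (SE, adjusted p = 2.76e-07). The 6 factors that did not pass were DBP3, MPP10, DRS1, NOP4, UTP18 and RRS1, between -0.26 and 0.55. Without centring 34 were lower and 2 higher.

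**Figure D3:**
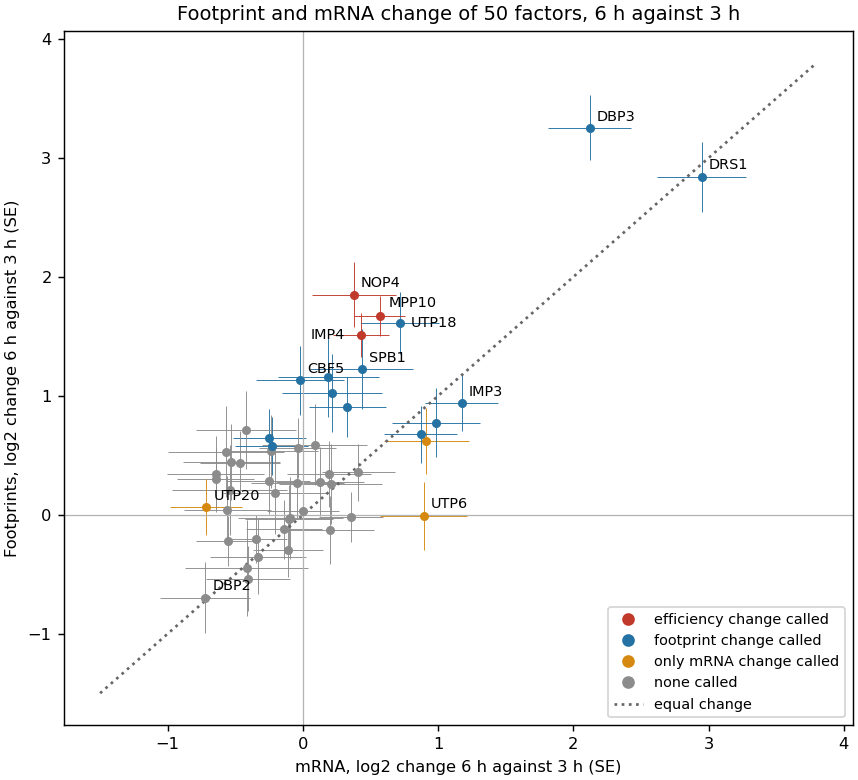
Each point is 1 of the 50 factors, with its mRNA change (horizontal) and its footprint change (vertical) at 6 h against 3 h on the log2 scale relative to the median gene, bars giving standard errors and the dotted line equal change. DBP3 and DRS1 lie far from the rest at 3.25 and 2.84 in footprints; NOP4, MPP10 and IMP4 lie above the line, and UTP6 below it.

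At 8 and 10 h most factors stood higher. At 8 h relative to 3 h, 35 of 50 factors were 2-fold or more higher in footprints and none lower, where 19.3% of all genes were higher, and at 10 h 41 were (all genes 18.2%). The median difference was 1.39 at 8 h and 1.67 at 10 h. mRNA was 2-fold or more higher for 17 and 21 factors (all genes 18.9% and 13.7%), with medians of 0.85 and 0.90, and total RNA for 17 and 8 (all genes 15.7% and 10.6%). Between 6 and 8 h alone, 20 factors were 2-fold or more higher in footprints (all genes 7.34%). These are single libraries, with no test. In RPKM as deposited the median gene changed by -0.28 and -0.22 in footprints and by -0.70 and -0.35 in mRNA at 8 and 10 h against 3 h.

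The counts differed between classes. All members of the Mpp10, box C/D, box H/ACA, Nop7 and UTP-B classes were 2-fold or more higher in footprints at 10 h than at 3 h, as were 3 of 6 in UTP-A, 3 of 5 helicases, 5 of 6 other small subunit factors and 12 of 15 other large subunit factors. CBF5 had 359 RPKM at 10 h, against 79.0 RPKM at 3 h, and NOP58 (YOR310C), a scaffold of box C/D particles, 291 RPKM at 10 h, against 71.0 RPKM at 3 h. DBP2 was the 1 factor with a negative difference, -0.12, at 248 RPKM, against 314 RPKM at 3 h. At 10 h relative to growing cells 46 factors were 2-fold or more lower in footprints and none higher, where 32.6% of all genes were lower. Relative to 0 h, 12 were lower and 1 higher (all genes 19.4% and 20.8%), the factor higher being RRS1 with 585 RPKM at 10 h, against 172 RPKM at 0 h.

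In spores most factors had more mRNA than at 10 h, while footprints were divided. On the centred scale 48 of 50 factors had higher mRNA and 23 higher footprints in spores than at 10 h, in single libraries. The share of all genes is not given for these counts of any difference, only for the 2-fold counts that follow. Relative to 10 h, 20 factors were 2-fold or more higher in mRNA and none lower, where 11.8% of all genes were higher, with a median difference of 0.86. Total RNA, from separate libraries, had 18 factors higher (all genes 7.25%) and a median of 0.90. Footprints had 1 factor higher and 2 lower (all genes 7.32% and 10.2%) and a median of -0.12. Before centring the median gene was 0.22 higher in mRNA. NSR1 had the largest mRNA difference, with 2192 RPKM of mRNA in spores, against 494 RPKM at 10 h, and 218 RPKM of footprints in spores, against 516 RPKM at 10 h. CBF5 mRNA stood at 1377 RPKM in spores, against 409 RPKM at 10 h, with footprints of 269.6 RPKM in spores, against 359 RPKM at 10 h.

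RRS1 and MRT4 had higher footprints in spores than at 10 h. RRS1 had 835 RPKM in spores, the highest of the 50, against 585 RPKM at 10 h and 506 RPKM in growing cells. MRT4 had 333 RPKM in spores, against 141 RPKM at 10 h. On the centred scale MRT4 was at 1.82 in spores, below its 3.16 in growing cells and below GAR1 in spores (1.99). NOP1, the highest factor of growing cells, had 258 RPKM in spores, against 4906 RPKM in growing cells. Relative to growing cells 47 of 50 factors were 2-fold or more lower in spore footprints and none higher (all genes 30.0% lower). UTP10 and UTP20 had less mRNA in spores than at 10 h, UTP10 with 54.8 RPKM, against 68.9 RPKM at 10 h, and UTP20 with 43.8 RPKM, against 71.3 RPKM at 10 h. Relative to 0 h, spore mRNA was 2-fold or more higher for 21 factors with the course 0 h library (all genes 26.0%) and for 11 with the parallel one (all genes 21.9%).

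The MATa/a cells gave different answers in the 2 assays. In the footprint library labelled MATa/a, 41 factors were 2-fold or more lower than at 0 h and none higher (all genes 17.0% lower), and relative to meiotic cells of the same hour 12 were higher (all genes 23.7%). In the mRNA library of that label 35 factors were 2-fold or more higher than at 0 h and none lower (all genes 33.4% higher). Its NOP1 mRNA was 2484 RPKM, close to the 2267 RPKM of growing cells, while its NOP1 footprints were 144 RPKM, against 4906 RPKM in growing cells. No translation efficiency is drawn from this pair.

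Translation efficiency, the log2 footprint level minus the log2 mRNA level relative to that of the median gene, also differed between states. In the course the median of the 50 factors was 0.51 in growing cells, 1.03 at 0 h, -0.11 at 1.5 h, -0.16 at 3 h, 0.23 at 6 h, 0.51 at 10 h and -0.59 in spores. For growing cells the mRNA header names replicate 1, while a copy of the course footprint column is headed replicate 2. By these headers the growing pair crosses replicates. The parallel 0 h pair of libraries gave 0.63, and at 1.5 h the parallel replicates 1 and 2 gave 0.51 and -0.10. At 1.5 h relative to 0 h in the course, 27 factors were 2-fold or more lower and none higher (all genes 15.0% lower), and in spores relative to 10 h 25 were lower and 1 higher (all genes 10.9% and 11.7%). The median factor was thus above the median gene in efficiency at 0 h and below it in spores, in single libraries. In the course IMP3 and UTP6 had the lowest differences at 1.5 h against 0 h, -2.11 and -2.04. The parallel pairs had no such difference for UTP6, with 0.17 at 0 h, against 0.40 and -0.02 at 1.5 h. For IMP3 they gave 2.27 at 0 h, against 0.91 and 0.87 at 1.5 h. In spores against 10 h NSR1 and NOP58 had the lowest differences, -3.16 and -2.35, while UTP20 had 1.02.

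At 3 h relative to 1.5 h the efficiency of no factor was called, where 0.0168% of all genes were (limma). At an unadjusted p under 0.05, 1 factor and 11.6% of genes passed. At 6 h relative to 3 h the efficiency of 3 of 50 factors rose and none fell, where 3.08% of all genes were called higher, and the median was 0.45. They were NOP4 (1.48 ± 0.41, SE, adjusted p = 0.0498), MPP10 (1.10 ± 0.25, SE, adjusted p = 0.0184) and IMP4 (1.08 ± 0.28, SE, adjusted p = 0.0336), whose footprint values are given above. IMP4 mRNA had 134, 155 and 169 RPKM at 6 h, against 147 and 185 RPKM at 3 h, and MPP10 mRNA 142, 162 and 122 RPKM at 6 h, against 134 and 146 RPKM at 3 h, while NOP4 mRNA had 103, 111 and 73.1 RPKM at 6 h, against 93.9 and 119 RPKM at 3 h. In RPKM the mRNA values of 6 and 3 h overlapped for all 3, and every 6 h footprint value lay above every 3 h value. On the centred scale, which the test used, the mRNA of NOP4 overlapped, while that of MPP10, which was called, and of IMP4 was higher in every 6 h library. With 1 of 23 libraries left out, the efficiency call of NOP4 was lost in 18 fits, that of IMP4 in 9 and that of MPP10 in 5. CBF5, NOP58, DBP3 and NSR1 had values between 1.10 and 1.15 that did not pass, CBF5 with 1.15 ± 0.43 (SE, adjusted p = 0.145). The count was 0 without any 1 of the course 6 h footprint, course 3 h mRNA, parallel 3 h footprint replicate 2, parallel 3 h mRNA or parallel 6 h mRNA replicate 2 libraries, 1 without any 1 of the course 3 h footprint, course 6 h mRNA, parallel 3 h footprint replicate 1 or parallel 6 h footprint replicate 2 libraries, 7 without the parallel 1.5 h replicate 1 footprint library, 10 without both parallel 1.5 h replicate 1 libraries, and 0 in RPKM as deposited. With quantile normalization 0 were higher and 1 lower.

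At 6 h relative to 1.5 h, efficiency rose for 2 factors and fell for 1, where 9.2% of all genes were higher and 6.83% lower. UTP10 and MPP10 rose, by 1.52 ± 0.45 (SE, adjusted p = 0.0325) and 1.14 ± 0.24 (SE, adjusted p = 0.00592). UTP10 had footprints of 38.0, 55.6 and 42.5 RPKM at 6 h, against 22.3, 74.1 and 27.7 RPKM at 1.5 h, and mRNA of 17.8, 24.7 and 18.2 RPKM at 6 h, against 40.7, 86.6 and 42.3 RPKM at 1.5 h. Its message was lower in every 6 h library than in any 1.5 h library, and its footprints at 6 h lay within the range of 1.5 h. MPP10 had footprints of 217, 160.1 and 184 RPKM at 6 h, against 67.5, 104 and 63.4 RPKM at 1.5 h, and mRNA of 142, 162 and 122 RPKM at 6 h, against 115, 185 and 138 RPKM at 1.5 h. Its footprints were higher in every 6 h library than in any 1.5 h library, and its mRNA values overlapped.

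UTP6 (YDR449C), of the UTP-B complex, was the opposite case, with an efficiency that fell by 1.52 ± 0.41 on the log2 scale (SE, adjusted p = 0.0209). Its mRNA had 81.0, 85.8 and 68.9 RPKM at 6 h, against 51.9, 84.7 and 49.9 RPKM at 1.5 h, and its footprints 17.5, 20.5 and 18.5 RPKM at 6 h, against 24.9, 72.7 and 31.2 RPKM at 1.5 h. Its 6 h footprints lay below all 1.5 h values. Its mRNA values overlapped in RPKM by 1 library, parallel 1.5 h replicate 1, and on the centred scale were higher in every 6 h library. Relative to 3 h its mRNA, with 58.4 and 63.7 RPKM then, rose by 0.89 ± 0.32 (SE, adjusted p = 0.0315), a call lost in 4 of 23 fits that left out 1 library. Its footprints had 20.8, 21.7 and 23.2 RPKM at 3 h, a difference at 6 h of -0.01 ± 0.29 (SE, adjusted p = 0.986). In the course UTP6 mRNA had 51.9, 58.4, 73.2, 81.0, 64.0 and 63.6 RPKM at 1.5, 3, 4.5, 6, 8 and 10 h, and footprints had 24.9, 20.8, 17.5, 17.5, 23.5 and 48.3 RPKM. From 1.5 to 10 h the message was highest at 6 h, where footprints in RPKM were at their lowest level of these hours together with 4.5 h. The count of factors called at 6 h relative to 1.5 h was 13 without the parallel 1.5 h replicate 1 footprint library, 11 (10 higher and 1 lower) without both libraries of that replicate, 1 without the course 6 h mRNA library and 0 in RPKM as deposited. The UTP10 call was lost in 8 of 23 fits that left out 1 library and with no term for the set, that of UTP6 in 2, and that of MPP10 in 0, and all 3 in the parallel libraries alone. Without both parallel 1.5 h replicate 1 libraries all 3 were called, with 1.65 for UTP10, 1.21 for MPP10 and -1.30 for UTP6.

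**Figure D4:**
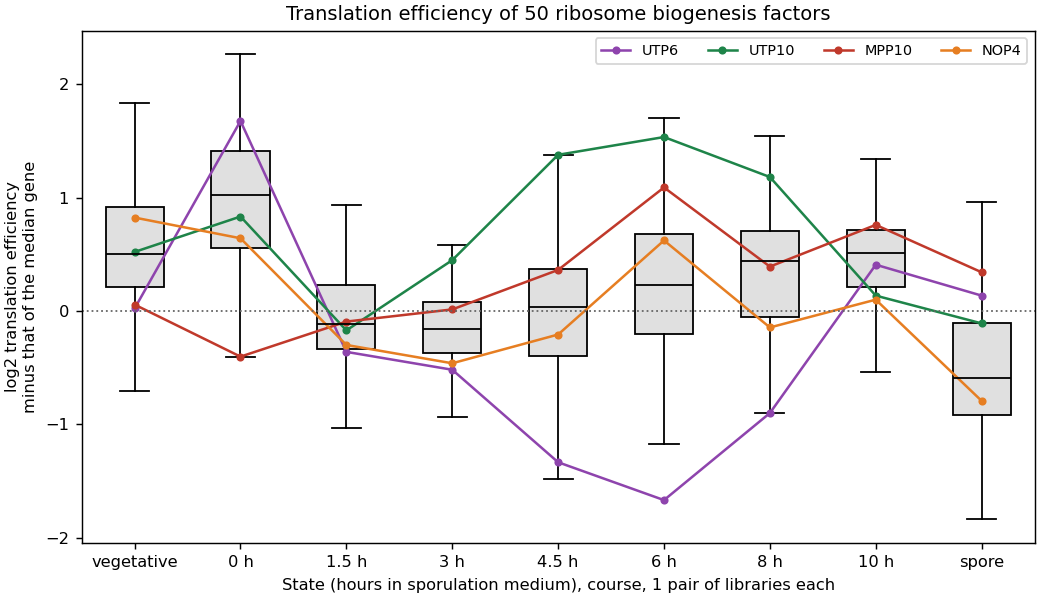
Boxes give the median and quartiles of the 50 factors' log2 translation efficiency relative to the median gene in each course state (1 footprint and 1 mRNA library each), whiskers reach the farthest factor within 1.5 box lengths, and lines follow 4 named factors. UTP6 is lowest at 6 h with -1.67, where UTP10 and MPP10 stand at 1.53 and 1.09.

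The induction series asks what the induction of Ndt80 does to transcripts. NDT80 mRNA was at 1430.1 to 5626 RPKM in the 5 induced libraries, against 45.0 to 79.8 RPKM in the 4 uninduced ones. SPS4, a middle meiotic gene, had 822, 11069, 38914, 79889.9 and 197213 RPKM in induced cells at 5.75, 6, 6.5, 7 and 7.75 h, against 58.5 to 536 RPKM in uninduced cells. The induced libraries of 5.75 and 6 h also differed in PCK1, a gluconeogenic enzyme, with 15553 and 18148 RPKM, against 1428 to 4682 RPKM in the later induced libraries and 1116 to 2109.5 RPKM in uninduced cells. Of other acetate use genes, FBP1 and ICL1 were also higher there than in every uninduced library. ADH2 went the other way, with 7903 and 3941 RPKM, against 9802 to 19197 RPKM in uninduced cells. MLS1 had 7764 and 4850 RPKM, against 6333 to 10210 RPKM in uninduced cells. The part of these differences in the factors' values was not tested. In the fit over all 9 libraries, with the hour as a linear term, none of the 50 factors was called, where 0.0837% of all 5974 genes were (limma). At an unadjusted p under 0.05, 4 factors passed, all higher, beside 14.9% of all genes.

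DRS1 and DBP3 had the largest differences. DRS1 mRNA had 46.5, 38.6, 106, 191 and 187 RPKM in induced cells at 5.75, 6, 6.5, 7 and 7.75 h, against 20.3, 17.7, 35.0 and 26.0 RPKM in uninduced cells at 4, 5.5, 6 and 7.75 h. The libraries from 6.5 h on stood apart from all others. Its difference was 1.82 ± 0.65 (SE, adjusted p = 0.303), and 0.67 without the uninduced library of 7.75 h. DBP3 had 132, 228, 81.1, 119.5 and 227 RPKM in induced cells at 5.75, 6, 6.5, 7 and 7.75 h, against 63.2, 32.9, 64.7 and 44.8 RPKM in uninduced cells at 4, 5.5, 6 and 7.75 h. All induced values were above all uninduced ones, with a difference of 1.79 ± 0.49 (SE, adjusted p = 0.252). UTP18 and NOP4 followed with 0.79 ± 0.40 (SE, adjusted p = 0.382) and 0.73 ± 0.27 (SE, adjusted p = 0.313).

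From 6.5 h on more factors fell than rose. With the induced libraries of 6.5 h and later only, against the 4 uninduced ones and with the hour kept as a term, 17 factors fell and 1 rose, where 12.3% of all genes were called lower and 12.8% higher. The median of the factors was then -0.93, against -0.20 over all genes. DRS1 was the factor that rose, by 3.04 (adjusted p = 0.00255). Among those that fell, values were -1.72 (adjusted p = 0.00618) for RRS1, -1.66 (adjusted p = 0.00788) for NOC3 (YLR002C), a large subunit export factor, -1.65 (adjusted p = 0.0174) for UTP15 (YMR093W), of UTP-A, and -1.22 (adjusted p = 0.00892) for NOP1. Without the term for the hour 26 fell and 3 rose (all genes 23.4% and 18.3%). Those that rose were DRS1 by 3.33 (adjusted p = 0.000305), DBP3 by 2.05 (adjusted p = 0.0116) and NOP4 by 0.91 (adjusted p = 0.0252). NOP1 mRNA had 230.0, 237, 55.3, 56.6 and 24.8 RPKM in induced cells at 5.75, 6, 6.5, 7 and 7.75 h, against 192, 156, 178 and 167 RPKM in uninduced cells at 4, 5.5, 6 and 7.75 h. Its induced values of 5.75 and 6 h were above, and its later ones far below, the uninduced values. The median gene was itself lower in the later induced libraries, at 152.5, 131.2 and 76.5 RPKM, against 172.6 to 197.3 RPKM in uninduced cells. On the centred scale NOP1 was at -1.58 in induced and -0.17 in uninduced cells at 7.75 h. Over all 9 libraries UTP15 had the lowest difference, -0.94 ± 0.44 (SE, adjusted p = 0.356), and NOP2 (YNL061W), a rRNA methyltransferase, had -0.85 ± 0.45 (SE, adjusted p = 0.388). Each hour is 1 library, so hour, induction and library cannot be told apart in any single value.

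**Figure D5:**
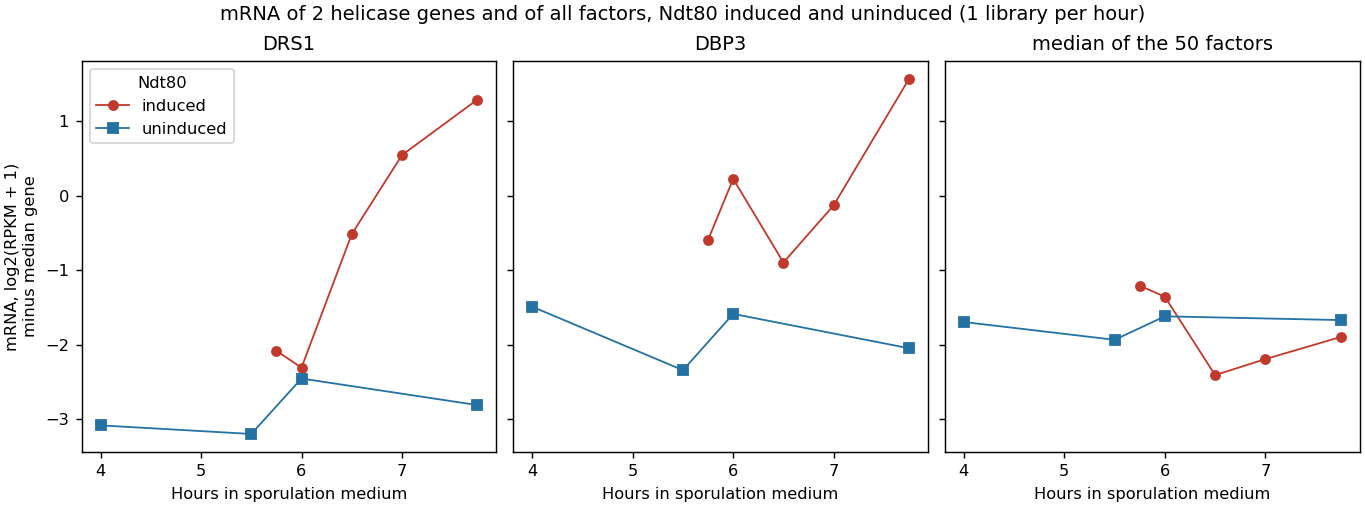
mRNA of DRS1 (left), DBP3 (middle) and the median of the 50 factors (right) in induced (circles) and uninduced (squares) cells by hour, as log2(RPKM + 1) minus the library's median gene, 1 library per point. DRS1 is at 1.29 in induced cells and -2.81 in uninduced cells at 7.75 h, while the median of the factors is -1.89 and -1.67.

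The spread between factors is given as the SD of their changes. Over the 50 factors it was 0.67 for growing cells against 0 h, 0.55 for 1.5 h against 0 h and 0.78 for 6 h against 3 h in footprints, against 2.24, 1.43 and 1.41 over all genes. At 6 h against 3 h the 2 helicases stood apart, and their changes of 3.25 and 2.84 were followed by 1.85 for NOP4. Assembly factors outside the 50, a list of 94 found genes, had the following counts. Of these, 64 rose and 0 fell in growing cells (median 1.18), 2 rose and 65 fell at 1.5 h (median -1.19), and 12 rose and 9 fell at 6 h against 3 h (median 0.08). The percentages of all genes called in these comparisons are those given above. Between classes of the 50, the median change at 6 h against 3 h ran from -0.22 to 1.51, and within the large subunit factors single values ran from -0.54 to 1.85.

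Related gene lists were counted in the same fit. Of 8 RNA polymerase I genes, whose enzyme transcribes the rRNA repeat, 7 rose in growing cells (median 1.75) and 7 fell at 1.5 h (median -1.47). Of 10 genes of subunits particular to RNA polymerase III, all rose in growing cells (median 1.79), and at 1.5 h 2 fell and 1 rose (median 0.04). The 137 ribosomal protein genes had a median of 4.01 in growing cells, with 135 called higher, and of -0.64 at 1.5 h, with 61 lower. At 6 h against 3 h, 118 ribosomal protein genes rose in mRNA and 43 in footprints, against 8 and 16 of the 50 factors. No list was tested against another. CIC1, a large subunit factor outside the 50, had the largest footprint change of its list at 6 h against 3 h, 2.01 ± 0.30 (SE, adjusted p = 2.81e-05), and RPA43, of RNA polymerase I, that of its list, 1.22 ± 0.26 (SE, adjusted p = 0.000726).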

How the data were processed

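Ribosome footprints, mRNA and total RNA were measured by sequencing, and 52 libraries of 54 samples were used. The authors deposited RPKM values of 6679 genes per table, per the file headers. Reads had been demultiplexed with CASAVA and bcl2fastq 2.17 and aligned with Bowtie2, per the submitters' processing notes. The sources used here name no counting tool, annotation, strand or genome build. The total RNA columns and 1 column of the induction table are treated as a score although the deposited headers say RPKM: total RNA values scale with gene length, and in the other column the 1 line that names no gene holds a value. That line was left out. A total RNA library of growing cells was left out, being on another scale than the rest, and 7 further columns of per-sample values were not used.

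Symbols came from the RefSeq table of the organism, by locus tag, for 5994 genes. In the table of the parallel set, 443 genes stand in another order for some columns, so 12 columns were assigned by row order, which gave correlations with the course of 0.954 to 0.983 over these genes, against 0.0319 to 0.182 by name. UTP13 is the 1 factor affected. Identical columns were counted once. The 0 h mRNA column of the parallel table was assigned by its sample's title. Reads were recovered from low RPKM values, which came out as whole reads (within 0.02 read) for 76.8% to 90.8% of values after 60 bases were taken off each gene's length. They give depth only, so the intervals here are those of the fit.

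Genes whose mean reached 5 RPKM were tested on log2(RPKM + 1), centred on each library's median gene, with limma 3.58.1 in R 4.3.3. Fold changes on this scale understate changes of low genes. Course and parallel libraries, footprints and mRNA, entered 1 fit of 34 libraries and 5944 genes with a term for each set (12 residual degrees of freedom). Contrasts of translation efficiency are interaction terms. The induction series had a fit of its own with 9 libraries, 5974 genes and the hour as a linear term. The tables were normalized separately by the authors. P-values were adjusted over all genes tested (Benjamini-Hochberg, threshold 0.05). States with 1 library are described by a difference of 2-fold or more, with no test. The fit was tested on simulated data. Tables and figures were made with Python 3.11.15, pandas 2.3.3, numpy 2.4.6 and matplotlib 3.10.9.

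Members, classes and gene lists were chosen with earlier results of these data known. Members given singly in a contrast were the 4 highest and the 4 lowest, a representative of each class and any called against the direction of most. DRS1, MRT4, UTP20 and others beyond the rule were named after their values were seen. Of the assembly factors outside the 50, 94 of 95 listed were found. Alternatives covered the pseudocount, the filter, the scaling, the model terms and each library in turn.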

Additional observations from a re-analysis of the deposited data

Results flagged for a closer look

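In the uninduced cells of the induction series, NOP2 mRNA stood apart from its group at 6 h, with a centred log2 level of -1.73 (58.3 RPKM), while the other 3 uninduced libraries lay between -0.79 and -0.74. Of 34 groups tested in this way this was the 1 that stood out. Chance gives about 1 in 20 groups, so 1 of 34 is no more than chance would give. The uninduced libraries are also each of another hour.

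The mRNA and footprint changes of 5 factors differed in the interaction term of the fit. At 6 h relative to 3 h the difference was 1.08 for IMP4, 1.48 for NOP4 and 1.10 for MPP10. At 6 h relative to 1.5 h it was 1.52 for UTP10, 1.14 for MPP10 and -1.52 for UTP6. Each of these differences is a footprint change minus an mRNA change on the log2 scale.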

How the results depend on the processing

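Of 2857 values of single factors recomputed over 86 results, 2646 kept direction and call, 151 lost the call, 31 gained it and 29 changed direction, none of them a called value. Without centring, in RPKM as deposited, the number called was 22 at 1.5 h against 0 h, 1 at 3 h against 1.5 h and 10 at 6 h against 3 h in footprints, 0 and 15 at 3 h against 1.5 h and 6 h against 3 h in mRNA, and 0 for efficiency at 6 h against 3 h and against 1.5 h. With quantile normalization it was 6 in footprints and 6 in mRNA at 3 h against 1.5 h, and 14 in mRNA and 1 in efficiency at 6 h against 3 h. Without a term for the set, efficiency at 6 h against 3 h had 1, and with each assay alone mRNA at 3 h against 1.5 h had 2. Chosen after seeing the data, leaving out both parallel 1.5 h replicate 1 libraries gave 4 in footprints and 3 in mRNA at 3 h against 1.5 h, 16 in mRNA and 10 in efficiency at 6 h against 3 h, and 11 in efficiency at 6 h against 1.5 h; footprints then had 42 called for growth, 48 at 1.5 h against 0 h, 23 (22 higher, 1 lower) at 6 h against 3 h and 46 (2 higher, 44 lower) at 6 h against 0 h. Without the MATa/a libraries, also chosen after seeing the data, footprints at 3 h against 1.5 h had 11 and the other counts of the joint fit were as reported. The induction comparison had 18 from 6.5 h on, and 29 with no term for the hour, the second chosen after seeing the data. At 1.5-fold, spore mRNA was higher for 33 factors against 0 h and 39 against 10 h. The cause of these shifts was not tested.

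With the parallel libraries alone, the fit with the replicate number as a block called 0 footprints and 0 mRNA at 3 h against 1.5 h, 6 and 2 at 6 h against 3 h, and 0 in efficiency. Without the block these were 1, 0, 6, 2 and 0. The labels tie these samples by a replicate number only. The correlations of deviations ran from -0.12 to 0.25, the highest being that of footprints with mRNA of 1.5 h. The efficiency contrasts took footprint and mRNA libraries as independent.

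Leaving out 1 library at a time, footprint calls ran from 31 to 42 for growth, 45 to 48 at 1.5 h against 0 h, 1 to 24 at 3 h against 1.5 h, 11 to 21 at 6 h against 3 h and 41 to 46 at 6 h against 0 h. mRNA calls ran from 0 to 5 at 3 h against 1.5 h and from 3 to 14 at 6 h against 3 h, and efficiency calls from 0 to 7 at 6 h against 3 h and 1 to 13 at 6 h against 1.5 h. Induction calls and efficiency calls at 3 h against 1.5 h were 0 throughout.

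Uncalled values that changed sign did so as follows. In RPKM as deposited, footprints of RPF1 were 0.088 for growth, SPB4 0.62 and RRS1 0.72 at 1.5 h against 0 h, RRS1 0.28 at 6 h against 0 h, and NOP7 -0.16, NMD3 -0.17 and UTP20 -0.13 at 6 h against 3 h, where NOP4 mRNA was -0.17. NOG2 was -0.028 for growth with quantile normalization. UTP6 footprints at 6 h against 3 h were 0.019 with a pseudocount of 5, 0.021 with no filter and 0.055 in the parallel libraries with or without the block, where NOP7 was -0.091, and NOP4 mRNA was -0.049 with it. With single libraries left out, footprints of UTP6 ran from -0.068 to 0.069, NOP7 from -0.12 to 0.25, NMD3 from -0.051 to 0.13 and UTP20 from -0.048 to 0.16 at 6 h against 3 h, SPB4 from -0.77 to 0.28 and RRS1 from -0.32 to 0.0035 at 1.5 h against 0 h, and RPF1 from -0.20 to 0.022 for growth. In the induction series NOP1 mRNA ran from -0.69 to 0.15 and NOP2 from -1.19 to 0.029.

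Promoter motifs and protein features were not run, for want of sequences here. Depth, down to 1030000 reads, limits the lowest factors most.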

Other observations

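Of 7 listed regulators (SFP1, STB3, DOT6, TOD6, SCH9, IFH1 and FHL1) 0 rose and 4 fell in footprints of growing cells relative to 0 h in the same limma fit, where 42.4% of all genes were called higher and 31.5% lower. STB3, a repressor that binds an element of ribosome biogenesis promoters, had 61.9 and 78.8 RPKM in growing cells, against 476 and 384 RPKM at 0 h, and fell by 2.77 on the log2 scale (adjusted p = 1.65e-09). DOT6, a repressor that acts through another element of the same promoters, had 41.6 and 37.6 RPKM in growing cells, against 181 and 246 RPKM at 0 h, and fell by 2.57 on the log2 scale (adjusted p = 4.57e-07). The growing and 0 h values of both were far apart. TOD6, the paralog of DOT6, fell by 1.25 on the log2 scale (adjusted p = 0.00238), and SFP1, an activator, differed by 0.07 (adjusted p = 0.808). The coactivator IFH1 was also lower in growing cells, with 30.1 and 36.3 RPKM, against 61.4 and 91.1 RPKM at 0 h.

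The paralogs differed in their calls at later hours. At 6 h relative to 3 h DOT6 had 474, 435 and 454 RPKM of footprints, against 416, 226 and 234 RPKM at 3 h, and rose by 0.90 (adjusted p = 0.00363), while TOD6 had 50.6, 62.5 and 54.6 RPKM at 6 h, against 81.4, 70.1 and 66.4 RPKM at 3 h, a difference of -0.17 (adjusted p = 0.605). The difference between the paralogs was not tested. IFH1, a coactivator of ribosomal protein genes, had 22.4, 22.9 and 21.3 RPKM at 6 h, against 61.4 and 91.1 RPKM at 0 h, and fell by 2.30 on the log2 scale (adjusted p = 3.01e-07).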
